A study of Mus musculus with 6 samples.

Results

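The T cells described here came from 1 section of 89-week-old mouse bone marrow and were chosen by their transcripts: cells with at least 2 counts summed over Cd3d, Cd3e, Cd3g and Trbc2, the genes of the T cell receptor complex that the panel carries (the rule also names Trbc1, which is not on it). The rule found 971 of 143810 segmented cells, or 0.675% (95% exact binomial interval 0.634% to 0.719%), out of 521938 cells in all 6 sections of the series. Intervals here cover counting error only, and because each condition is represented by 1 section, no test between conditions or animals was possible. Cells of 1 section are not replicates, so differences are given as folds with intervals and no p-values. All other cells of the same section are the comparison.

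The study mapped the surroundings of developing erythroid cells in mouse and human blood-forming tissue, with C1q-expressing macrophages at the center of its question. The Xenium assay detects single transcripts in a tissue section with probes against a fixed panel, here of 5050 genes of which 44 were custom. The marrow was from the leg bones of wild-type mice without treatment (Jackson Laboratory), was cut frozen, freed from bone, embedded in paraffin and sectioned at 5 µm; the labels do not say from how many mice it came. A piece of wild-type E13.5 fetal liver was measured in the same run on the same panel, and the remaining sections used a smaller panel.

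T cells carry a T cell receptor whose signal runs through the CD3 chains, the kinases Lck and Zap70 and the adaptor Lat. Mature T cells enter the marrow from the blood, and the marrow is known as a place where memory T cells, many of them CD8 T cells, are maintained by cytokines of stromal cells. CD4 cells help or restrain other immune cells, CD8 cells kill, and regulatory T cells hold responses back.

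The section held 13053261 transcripts with a median of 60 per cell, and 140707 cells, among them all 971 members, had at least 5 genes and were used from here on. The members were deeper and larger than the other cells. Their median was 116 transcripts (quartiles 74 and 177) against 62 (30 and 119), their median cell area 35.7 against 28.7 µm2 and their median nuclear area 21.5 against 17.2 µm2. B gate cells, those with at least 2 counts of a set of B cell genes that includes Cd79a, Cd79b, Ms4a1 and Pax5, were of similar depth, with a median of 123 transcripts. The 40 negative control probes gave 1 count in all members together. No cell barcode was shared with the fetal liver, and at most 4 were shared with any other section.

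**Figure D1:**
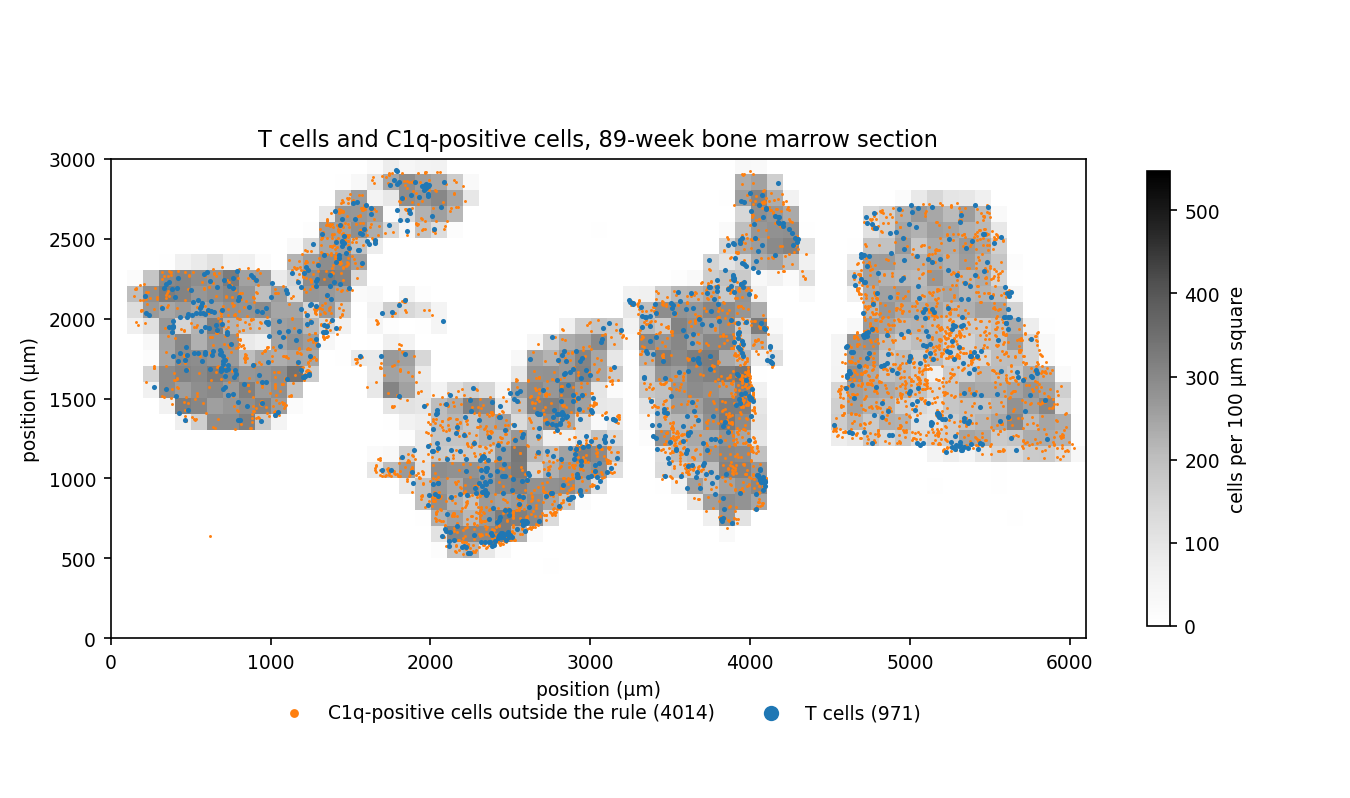
Positions (µm) of the 971 T cells (blue) and of the 4014 C1q-positive cells outside the rule (orange) in the 89-week marrow section, over the number of cells per 100 µm square (grey). The T cells lay in every large piece of marrow, mostly apart from each other.

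The values that chose the members are a description and not a result. Trbc2, the constant region of the receptor beta chain, was seen in 695 of the 971 members, Cd3d in 388, Cd3g in 341 and Cd3e in 313. Of the members, 319 had counts of 1 of these genes only, 546 of 2, 98 of 3 and 8 of all 4. Just inside the threshold were 641 cells with exactly 2 counts and just outside it 2469 cells with 1 count. The summed level of 17 other genes of T cell receptor signaling was 12267 CPM (counts per 1000000 transcripts of the group, rule genes left out) in the former and 8298 CPM in the latter, compared with 1959 CPM in the 137267 cells without a rule count. Cells with 1 count thus lay between both and were kept among the other cells.

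**Figure D2:**
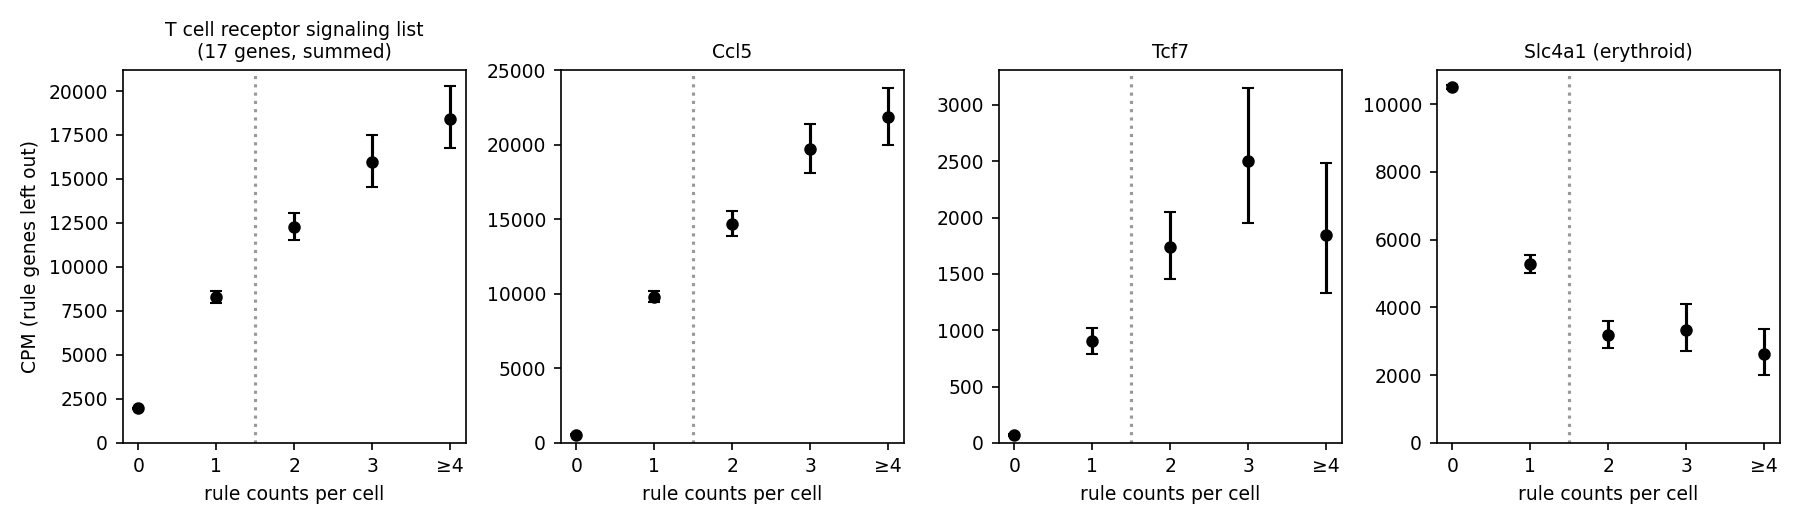
Level in CPM of the summed T cell receptor signaling list, Ccl5, Tcf7 and the erythroid gene Slc4a1 in cells with 0, 1, 2, 3 and at least 4 counts of the rule genes; bars are 95% Poisson intervals and the dotted line marks the threshold. The list was at 1959 CPM without a rule count and at 18436 CPM with 4 or more, whereas Slc4a1 went from 10518 to 2615 CPM.

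In the E13.5 fetal liver, 1 of 5285 cells met the rule, or 0.0189% (0.000479% to 0.105%), although its cells were deeper with a median of 190 transcripts. That cell had no count of the T cell receptor signaling list and none of Ccl5. After every cell was thinned to 50 transcripts, 0 of 4866 fetal liver cells met the rule, against 295 of 82519 marrow cells or 0.357% (0.318% to 0.401%). The other panels hold only Cd3d and Cd3e of these genes. With at least 2 counts of that pair, 230 cells or 0.160% of the 89-week marrow would be chosen, 116 or 0.221% of the P8 marrow, 8 or 0.00682% of the E14.5 fetal liver, 27768 or 25.6% of the untreated spleen and 5651 or 5.97% of the spleen after phenylhydrazine. Panels, depth and outlining of cells differed between these sections, so the shares are set side by side and not compared.

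The label was borne out by genes that the rule did not use. Between members and all other cells, 2230 genes reached the minimum level (at least 10 counts expected in the members at the mean level of both groups), of which 245 or 11.0% were at least 2-fold higher and 170 or 7.62% at least 2-fold lower in the members. The median fold of the 2230 genes was 1.09. A gene scarce in the other cells reached the minimum only if it was high in the members, and the reverse. For such genes the minimum itself required a difference of at least 2-fold, and for the scarcest far more. Pdcd1, at 5.81 CPM in the other cells, could be considered only with a fold far above 2. Folds of scarce genes and counts of higher genes within lists partly reflect this. All 17 measured genes of the T cell receptor signaling list were at least 2-fold higher, with a median of 17.2-fold. Summed, the list was 6.77-fold higher (6.46 to 7.10), a value that does not depend on the minimum. Cd5, which tunes the strength of the receptor signal, was 37.4-fold higher (25.7 to 53.6), at 328 CPM against 8.75 CPM. Its relative Cd6 was 32.3-fold higher and the receptor's zeta chain Cd247 25.9-fold. The kinases Zap70 and Lck were 24.1-fold and 15.5-fold higher. The co-stimulatory receptor Cd28 was 21.4-fold, the thymocyte selection gene Themis 23.1-fold and the T lineage transcription factor Bcl11b 18.9-fold higher. The adaptor Lat, which platelets also use, was 6.52-fold higher, and the adaptor Lcp2, which platelets and myeloid cells also use, differed least in this list, with 2.35-fold.

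Counts per gene were few. Cd5 rested on 43 counts and was seen in 4.12% of the members, Lck in 14.3% and Cd6 in 9.06%. Tcf7, a transcription factor of naive and memory T cells, was seen in 19.7% and was 22.0-fold higher (19.1 to 25.3), at 1919 CPM against 87.2 CPM. Ccl5, a chemokine made by memory and effector T cells and by NK cells, was seen in 523 members or 53.9%. It was 22.6-fold higher (21.6 to 23.7), with 2239 counts and 17053 CPM in the members against 754 CPM in the other cells. Of the 25 genes with the highest folds, Ccl5 had the most counts.

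**Figure D3:**
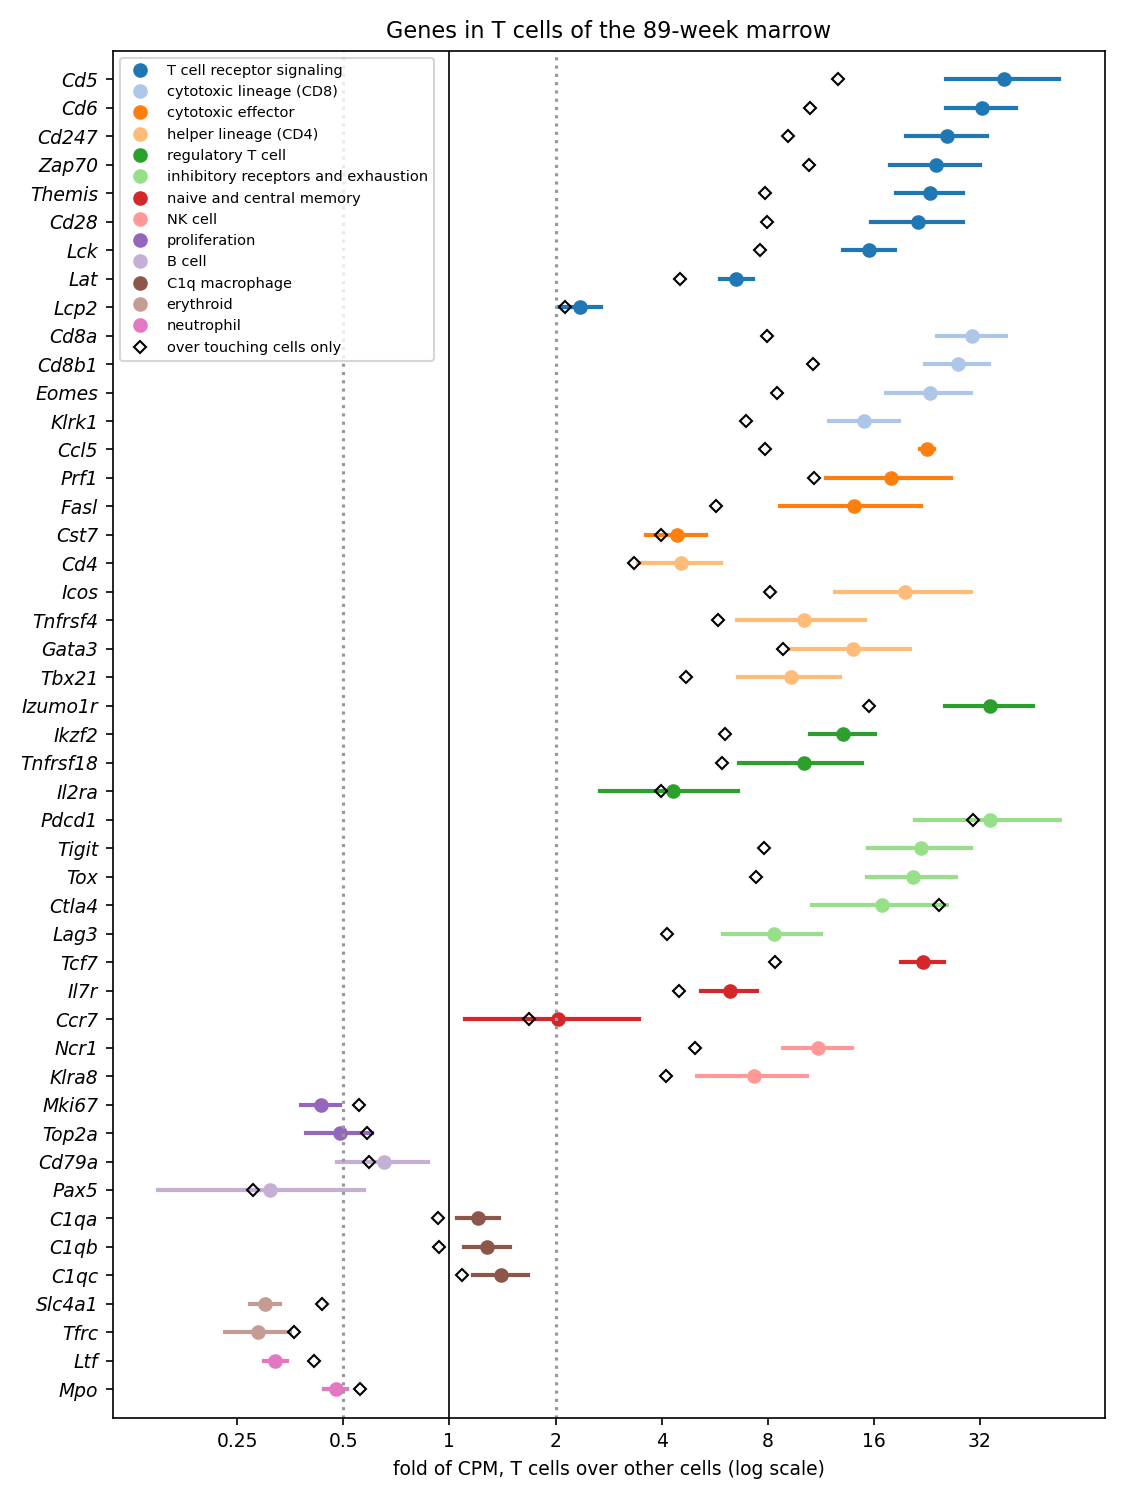
Fold of CPM in T cells over all other cells for genes of the lists, grouped by role (colored points, lines are 95% intervals), and over touching non-member cells only (open diamonds), on a log axis with dotted lines at 0.5 and 2. T cell genes lie to the right, from Lcp2 at 2.35-fold to Cd5 at 37.4-fold, and erythroid, neutrophil and proliferation genes to the left.

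The folds of Cd8a and Cd8b1 were above that of Cd4. All 5 measured genes of the cytotoxic lineage list were at least 2-fold higher. Cd8a and Cd8b1, the chains of the CD8 co-receptor, were 30.4-fold (24.2 to 37.9) and 27.7-fold (22.3 to 34.0) higher. Eomes, a transcription factor of memory CD8 and NK cells, was 23.0-fold and the activating receptor Klrk1 15.0-fold higher, whereas Runx3 was 2.89-fold higher. In the helper list, 5 of 5 genes that reached the minimum level were higher. All 10 on the panel summed to 5.64-fold (4.90 to 6.45). Cd4 itself was 4.53-fold higher (3.43 to 5.88), at 449 CPM against 99.2 CPM, and mouse macrophages and dendritic cells also express it. The inducible co-stimulator Icos was 19.7-fold, the transcription factors Gata3 and Tbx21 14-fold and 9.31-fold and the TNF receptor family member Tnfrsf4 10.1-fold higher. Tbx21 was not confined to members with Cd4. It had 13 counts in members with Cd8 and no Cd4 counts and 2 in those with Cd4 and no Cd8 counts. The ratio of their levels was 2.49 (0.56 to 22.8). Zbtb7b, the factor that sets the CD4 fate, had 7 counts in the members and was not considered.

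Effector genes were uneven. Of 7 cytotoxic effector genes considered, 6 were at least 2-fold higher. Besides Ccl5 these were perforin Prf1 (17.9-fold, 11.7 to 26.5), the death ligand Fasl (14-fold), the inhibitory receptor Klrc1 (12.5-fold), Id2 (7.18-fold) and Cst7 (4.42-fold). The granzymes were scarce, with 12 counts of Gzma, 8 of Gzmb and 3 of Gzmk in all members, too few to be considered. Zeb2, a factor of terminal effector cells that myeloid cells share, stood at 0.64-fold.

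Memory and naive genes were mixed. Of 15 genes on the list, 11 were on the panel and 10 were considered, of which 5 were at least 2-fold higher. With Tcf7 these were the interleukin-2 and interleukin-15 receptor chain Il2rb (19.7-fold, 1828 against 92.8 CPM), the interleukin-7 receptor Il7r (6.24-fold), the egress receptor S1pr1 (2.42-fold) and the lymph node homing receptor Ccr7 (2.04-fold, interval 1.11 to 3.45). Cd44 was at 1.79-fold and Bach2 at 0.74-fold. Among 16 cytokine receptors considered, 13 were at least 2-fold higher, led by Il2rb, Il12rb1 (17.8-fold), Il18r1 (10.3-fold) and Il27ra (9.88-fold). The common gamma chain Il2rg was 5.09-fold higher. Il6ra was at 0.92-fold and Il6st at 1.08-fold.

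Of 10 inhibitory receptors and exhaustion genes considered, 8 were at least 2-fold higher. The 14 on the panel summed to 4.88-fold (4.38 to 5.43). Pdcd1, which encodes the checkpoint receptor PD-1, was 34.1-fold higher (20.9 to 53.9) with 26 counts. Tigit was 21.8-fold, the transcription factor Tox 20.6-fold, Ctla4 16.9-fold, Cd160 16.8-fold and Lag3 8.32-fold higher. Havcr2, which encodes TIM-3, had 8 counts and was not considered. All 8 considered genes of the regulatory T cell list were higher. The 10 on the panel summed to 11.3-fold (10.1 to 12.6). Izumo1r, the folate receptor family member of regulatory and anergic T cells, was 34.2-fold (25.4 to 45.4), Ikzf2 (Helios) 13.1-fold, Tnfrsf18 10.1-fold and the interleukin-2 receptor alpha chain Il2ra 4.31-fold higher. Foxp3, the defining factor of regulatory T cells, had 17 counts in the members, 1 in each of 17 cells, and stood at 129 CPM against 6.74 CPM. In these 17 cells Ctla4 was at 7.78 times (1.49 to 25.7) the level of the other 954 members, on 3 counts. The intervals of Ikzf2 (3.07, 0.98 to 7.42), Izumo1r, Il2ra, Tnfrsf4 and Icos included 1, and Tnfrsf18 and Tnfrsf9 had no count. Of the 17, 2 had Cd8 and no Cd4 counts and 0 had Cd4 and no Cd8 counts.

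Chemokine receptors and adhesion genes differed by up to 18.7-fold, and 8 of 12 considered were at least 2-fold higher. Cxcr3, a receptor of memory and effector T cells, was 18.7-fold higher (14.5 to 23.9). The integrins Itgal and Itgb7 were both 3.72-fold and the selectin ligand Selplg 3.0-fold higher. Cxcr4, the receptor for the stromal chemokine Cxcl12, stood at 0.85-fold (0.70 to 1.02), and most marrow cells express it. Cytokine transcripts were scarce. Xcl1, a chemokine that draws dendritic cells, was 17.5-fold (13.8 to 22.0) and Tnfsf14 2.79-fold higher, Tgfb1 was at 0.74-fold, and 16 of 20 cytokine genes on the panel were too low to be considered. Ifng had 13 counts in the members. Il4 and Il17a had 0, which allows up to 22.8 CPM.

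Erythroid and megakaryocyte genes and most neutrophil genes were lower, and those of other marrow cells were mixed. All 7 erythroid genes considered were at least 2-fold lower, among them the anion exchanger Slc4a1 at 0.30-fold (3123 against 10408 CPM) and the transferrin receptor Tfrc at 0.29-fold. All 5 megakaryocyte genes, 6 of 8 neutrophil genes, 3 of 4 mast cell and basophil genes and 3 of 8 B cell genes considered were at least 2-fold lower. Of 7 monocyte genes 3 were lower and 1 was higher, of 3 dendritic cell genes 0 were lower and 1 (Ccr7) was higher, and of 4 plasma cell genes 0 differed by 2-fold. The lactoferrin gene Ltf was at 0.32-fold and Pax5, the B lineage factor, at 0.31-fold. Among all genes considered, Padi4, a neutrophil enzyme, was the lowest (0.14-fold, interval 0.06 to 0.29), on 7 counts. The erythroid transporter Mfsd2b was at 0.19-fold on 27 counts. No proliferation gene was higher, and 6 of 11 were at least 2-fold lower, with Mki67 at 0.43-fold (0.38 to 0.49) and Birc5 at 0.38-fold. None of 11 C1q macrophage genes and none of 9 stromal genes considered differed by 2-fold in either direction, and 1 of 5 endothelial genes was lower. Of 5 genes of gamma delta and innate-like T cells 2 were higher and 1 was lower, and of 5 interferon response genes 2 were higher. Immediate early genes, which handling of tissue and activation of cells can raise, were higher in the members when summed, at 868 against 388 CPM or 2.24-fold (1.84 to 2.70). Junb, the only one of 4 on the panel that was considered, was 2.49-fold higher (2.01 to 3.05). The part of RNA quality or handling in the other differences was not tested.

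The gate of another cell type was passed by 376 of the members, and 595 or 61.3% passed none, against 51.6% of the other cells. Doublets were not called, and the part of neighboring transcripts in this was not tested. The members that also passed a gate included 101 erythroid, 78 neutrophil, 63 C1q-positive, 47 stromal, 41 B, 35 NK and 35 megakaryocyte gate cells. Shares of members and of other cells were 10.4% and 18.2% for the erythroid and 8.03% and 17.1% for the neutrophil gate. For the B gate they were 4.22% and 6.13%, for the megakaryocyte gate 3.60% and 4.28%. The C1q-positive (6.49% and 2.87%) and NK gates (3.60% and 0.176%) were more frequent in members. The stromal gate was passed by 4.84% of the members (3.58% to 6.38%) and by 2.90% of the other cells, or 4.63% after weighting to the members' depth. With the 595 alone, 231 of the 245 higher and 154 of the 170 lower genes kept their 2-fold difference, and the fold of Ccl5 was 28.5. The gates were not applied to the other cells, so genes of the gated cell types fell in the members by construction. Erythroid genes summed to 7301 CPM in the 595 and to 14128 CPM in all members. For genes of these cell types the 154 are therefore no independent check. In the 5516 other cells that touched a member, Ccl5 was at 2169 CPM, so that its fold over these cells was 7.86 (7.35 to 8.42). Of the 245 higher genes 185, and of the 170 lower genes 121, kept their 2-fold difference against these cells too. Pdcd1 and Ctla4 kept higher folds over touching cells, 30.5 (10.6 to 120) and 24.4 (9.23 to 81.5). With other cells weighted to the members' depth, Ccl5 was 24.5-fold and Cd5 42.0-fold higher, and 244 of the 245 higher and 155 of the 170 lower genes kept their difference.

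NK cells share Ccl5, Eomes, Il2rb, Prf1 and Klrk1 with T cells. All 5 NK genes considered were at least 2-fold higher in the members, among them the NK receptor Ncr1 at 11.1-fold (8.82 to 13.8) and Klra8 at 7.31-fold. The 6 on the panel summed to 10.9-fold (9.59 to 12.4). The NK gate, at least 2 counts of Ncr1, Klrb1c and Klra8 (Klre1 is not on the panel), held 35 members or 3.60% and 246 cells outside the rule. These 246 were 0.176% of the other cells, or 0.285% after weighting to the members' depth. In the T cell receptor signaling list, which neither the rule nor the gate used, Lat was 0.16 times as high in the 35 NK gate members as in the other members (0.03 to 0.49) and Themis had no count, whereas Cd2, an adhesion receptor of T and NK cells, was 2.99-fold higher (1.65 to 5.07). The intervals of the remaining genes of the list included 1, among them Lck (1.46) and Cd247 (1.46). Xcl1 of the cytokine list, picked after its value was seen, was 8.32-fold higher in the 35 members than in the other members (5.05 to 13.3). It had 26 counts in the 35 and 63 in the other members. Without the 35 members, and with the NK gate cells outside the rule still among the other cells, Ccl5 was 22.1-fold higher than in other cells, Eomes 21.3-fold, Prf1 17.5-fold and Klrk1 13.0-fold. The gate needs at least 2 counts, and the members outside it still held 30 Ncr1 counts. The part of NK cells below the gate was not tested.

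By co-receptor counts, 149 members had Cd8a or Cd8b1 and no Cd4, 15.3% (13.1% to 17.8%). Another 48 had Cd4 and no Cd8, 4.94% (3.67% to 6.5%), 5 had both and 769 had neither. The Cd8 class rests on 2 genes and the Cd4 class on 1, so their sizes are not a like comparison. Cd8a alone was seen in 80 members and Cd8b1 alone in 98, whether or not the other was seen. All members together held 105 counts of Cd8a, 117 of Cd8b1 and 59 of Cd4. Members with neither had a median of 111 transcripts and those with Cd8 or Cd4 136 and 146, and the part of depth in this was not tested. In a separate draw of 50 transcripts per cell, 263 cells met the rule, and 26 of them or 9.89% (6.56% to 14.1%) had Cd8 alone. In 111 genes considered, 7 or 6.31% were at least 2-fold higher and 11 or 9.91% at least 2-fold lower in the Cd8 than in the Cd4 members.

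Among the 111 genes considered, Ccl5 had the ratio farthest from 1. It was at 33752 CPM in the Cd8 members and at 4920 CPM in the Cd4 members, 6.86-fold higher (5.01 to 9.64), and 6.84-fold without C1q-positive members. The median Cd8 member had 4 Ccl5 counts and the median Cd4 member none, and 24 Cd8 members but no Cd4 member had at least 10. Genes called higher in Cd8 members also included the neutrophil genes Ltf (2.16) and Lcn2 (2.09), at 1.59 and 1.79 without C1q-positive members. Selplg was 1.86-fold higher in Cd8 members (1.02 to 3.68), and Themis and Cxcr3 had ratios of 3.96 (1.24 to 20.3) and 4.8 (1.20 to 41.8). The ratios of Themis, Cxcr3 and the list genes higher in Cd4 members were scaled to totals without Ccl5. Eomes, Xcl1 and Il18r1 had 18, 15 and 12 counts in Cd8 members and none in Cd4 members. Among list genes picked after their values were seen, those higher in Cd4 members were Ikzf2 (Cd8 to Cd4 ratio 0.21, 0.07 to 0.56), Izumo1r (0.09, 0.01 to 0.41), Maf (0.30, 0.12 to 0.73), Tnfrsf9 (0.08, 0.00 to 0.69), Tnfrsf4 (0.15, 0.01 to 0.94) and Pdcd1 (0.15, 0.01 to 0.94), on 5 to 13 counts each in the Cd4 members. The lowest ratio among the considered genes was that of C1qa, 0.26 (0.16 to 0.43), and 10 of the 48 Cd4 members were themselves C1q-positive, compared with 9 of 149 Cd8 members. Without C1q-positive members the C1qa ratio was 0.60, and that of Mpo, a gene of granulocyte precursors, was 0.33 in place of 0.46. The part of macrophage transcripts in the Cd4 group was not tested further.

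Ccl5 counts themselves divided the members, with 448 at 0, 224 at 1 or 2 and 299 at 3 or more, up to 29. Of the other cells, 96.5% had none and 0.739% had 3 or more. A Cd8a or Cd8b1 count was found in 30.4% of the members with at least 3 Ccl5 counts and in 6.92% of those with none, whereas a Cd4 count was found in 2.34% and 7.81%. The first group had a median of 156 transcripts and the second of 95, and 23 and 4 of them passed the NK gate. Scaled to the remaining transcripts, Eomes was 9.35-fold (4.00 to 26.7), Prf1 4.35-fold (1.57 to 14.9), Xcl1 4.20-fold (2.34 to 8.00) and Cxcr3 2.69-fold higher in members with at least 3 Ccl5 counts than in those with none. Ncr1 was 5.62-fold higher (2.91 to 11.9). Some genes of the regulatory and helper lists were lower with Ccl5 and others were not. Ctla4 had a ratio of 0.06 (0.00 to 0.38) with 1 count against 19, Tnfrsf4 0.10 (0.01 to 0.42), Cd40lg 0.10 (0.00 to 0.72), Il2ra 0.21, Nt5e 0.33 (0.11 to 0.84), Izumo1r 0.25 (0.10 to 0.51) and Ikzf2 0.40 (0.23 to 0.67), and the checkpoint gene Pdcd1 0.29 (0.07 to 0.89). Tbx21 of the helper list was higher with Ccl5, at 2.52 (1.14 to 5.96). The intervals of Foxp3 (0.38, 0.07 to 1.53), Icos (0.36, 0.10 to 1.02), Gata3 (0.46, 0.17 to 1.09), Tnfrsf18 (0.95) and Tnfrsf9 (1.14) included 1, as did those of Cxcr5, Zbtb7b, Ccr4 and Il10 on at most 10 counts each.

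**Figure D4:**
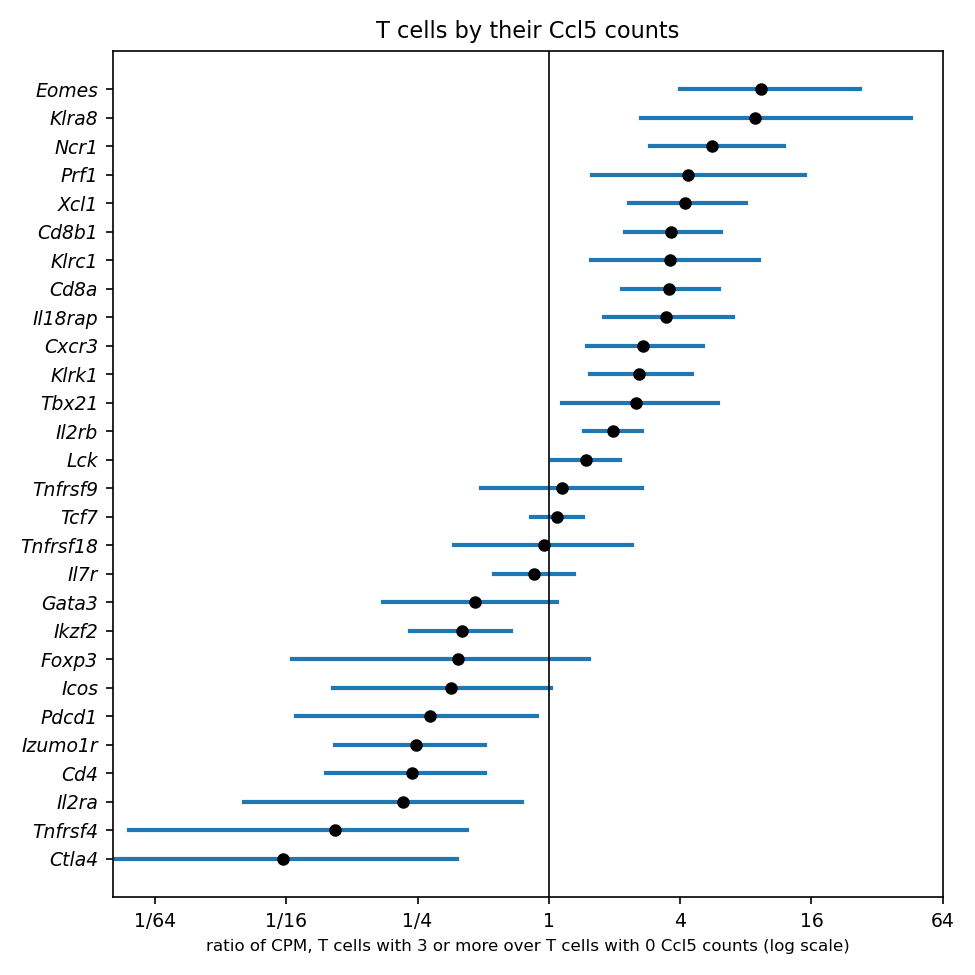
Ratio of CPM between the 299 T cells with at least 3 and the 448 T cells with no Ccl5 counts, on a log axis with 95% intervals (the lower bound of Ctla4 lies at or beyond the axis); the genes were picked from the lists after their values were seen. Eomes at 9.35 and Prf1 at 4.35 lie to the right, Ctla4 at 0.06 and Tnfrsf4 at 0.10 to the left, and Tcf7, Il7r, Tnfrsf18 and Tnfrsf9 near 1.

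Along the section, the members were found everywhere. Cut into 6 strips of equal cell number along its long axis, it held between 131 and 219 members per strip, 0.559% to 0.934% of the cells. Ccl5 in the members was at 17546, 16650, 16193, 19658, 16151 and 16419 CPM in the strips in order, and its fold over the other cells of the strip was lowest at 16.7 and highest at 30.4. Tcf7 was 13.5-fold to 29.6-fold and Lck 10.3-fold to 22.6-fold higher. The share of members with Cd8 and no Cd4 was 8.82% in the first strip, which had the lowest median depth (50 transcripts), and 13.9% to 18.1% in the other 5 strips.

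Cells were taken to touch where a Delaunay triangulation of their centers joined them by an edge of at most 400 µm, the limit the study set. The count of such edges was read against its average if labels were exchanged freely among cells. Log2 ratios were taken after 1 was added to the observed and to the expected count, which lowers ratios on few contacts most. Outside the members, 4014 cells were C1q-positive, that is, the 3 chains C1qa, C1qb and C1qc summed to 3 counts or more. The complement protein C1q is made by tissue macrophages, and in the study it marks the macrophages of erythroblastic islands. Members touched these cells 316 times where 166.1 contacts were expected, which gave a log2 ratio of 0.92 (Poisson interval 0.76 to 1.08). In the 6 strips the log2 ratio was 1.18, 1.16, 0.95, 0.81, 0.72 and 0.56. Both groups were deeper than the average cell. With labels exchanged only among cells of the same of 10 depth classes the log2 ratio was 0.64 (0.47 to 0.79), within tiles of 200 µm it was 0.71, and within tiles and 5 depth classes it was 0.48 (0.32 to 0.64).

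At least 1 C1q-positive neighbor was found for 234 of the 971 members, 24.1% (21.4% to 26.9%). Of the members, 63 were themselves C1q-positive, 6.49% against 2.87% of other cells and 4.52% after weighting to the members' depth. Without these, 21.4% of the members (18.7% to 24.2%) had such a neighbor, compared with 13.5% of the other C1q-negative cells (13.4% to 13.7%), 16.2% after weighting to the members' depth, 16.1% of the B gate cells (15.3% to 16.9%) and 17.3% of the NK gate cells (12.7% to 22.7%). Their median distance to the nearest C1q-positive cell was 18.6 µm against 21.2 µm for the other C1q-negative cells. The log2 ratio of these C1q-negative members was 0.70 (0.52 to 0.88) over the section and 0.30 (0.12 to 0.48) within tiles and depth classes. Under both it was the first of 11 C1q-negative classes, followed by endothelial gate cells at 0.51 (0.37 to 0.65) and 0.13 (-0.01 to 0.27). The intervals of the T and endothelial classes overlapped in both settings. Among members that were not C1q-positive, 31.6% (17.5% to 48.7%) of the Cd4 and 19.3% (13.1% to 26.8%) of the Cd8 members had a C1q-positive neighbor, with overlapping intervals.

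C1q-positive cells were not the partners with the highest ratio. Members touched each other 88 times where 20.1 contacts were expected, with a log2 ratio of 2.08 (1.76 to 2.38) over the section and of 1.51 (1.19 to 1.80) within tiles and depth classes. Nevertheless, 818 members touched no other within 30 µm, 58 pairs and 7 groups of 3 were found, and the largest groups, of which there were 4, had 4 cells. NK gate cells followed at 1.69 (1.18 to 2.15), on 35 contacts. Dendritic gate cells stood at 0.95 (0.68 to 1.20) over the section and 0.54 (0.28 to 0.80) within tiles and depth classes, stromal gate cells at 0.69 (0.51 to 0.86) and 0.30 (0.13 to 0.47) and B gate cells at 0.56 (0.43 to 0.68) and 0.19 (0.07 to 0.32). Monocyte gate cells were at 0.56 (0.35 to 0.76) over the section, but within tiles and depth classes the interval included 0 (0.13, -0.08 to 0.33). Erythroid gate cells were at -0.36 (-0.46 to -0.26) and neutrophil gate cells at -0.19 (-0.29 to -0.10). Cells touching a member held T cell transcripts such as Ccl5 above the level of other cells, as given above, and the part of this in the contacts was not tested.

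**Figure D5:**
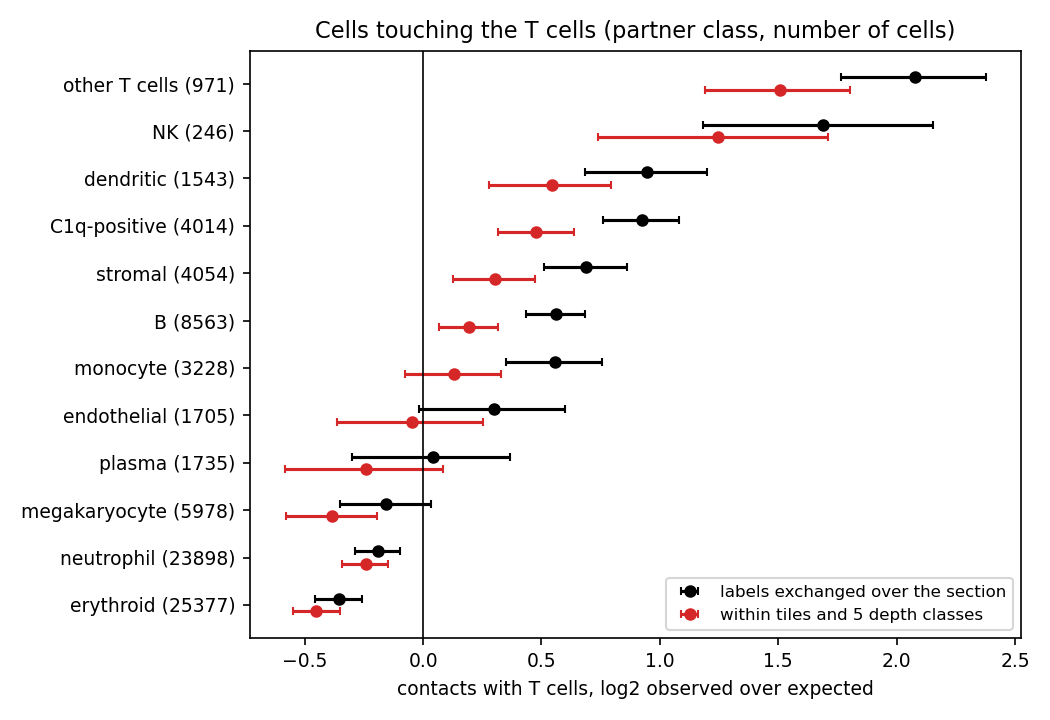
Contacts of the T cells with cells that passed each gate, as log2 of observed over expected (1 added to both) with 95% Poisson intervals. Labels were exchanged over the whole section (black) and within 200 µm tiles and depth classes (red). Other T cells (2.08 and 1.51) and NK gate cells (1.69 and 1.25) lie highest, C1q-positive cells are at 0.92 and 0.48, and erythroid gate cells lie lowest at -0.36 and -0.45.

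Members with and without a C1q-positive neighbor were compared among the 908 that were not C1q-positive. The 194 with such a neighbor had a median of 118 transcripts and the 714 without one 111. Of 724 genes considered, 15 or 2.07% were at least 2-fold higher and 9 or 1.24% at least 2-fold lower. The highest were Pf4, a platelet chemokine gene, at 4.12-fold (2.27 to 7.56), C1qc at 2.76-fold (1.51 to 5.00), the interferon-induced Gbp2 at 2.75-fold (1.35 to 5.53), Gtf2a2 at 2.43-fold and Fcna, a lectin gene of macrophages, at 2.23-fold. The other C1q chains had ratios of 1.24 (0.71 to 2.08, C1qa) and 1.62 (0.99 to 2.59, C1qb), and their intervals included 1. In the other C1q-negative cells the same contrast gave 2.07 for C1qa, 1.89 for C1qb, 2.18 for C1qc and 2.07 for Fcna, but 1.24 for Pf4 and 1.32 for Gbp2. The lowest were Top2a (0.30, 0.12 to 0.65), Ldha (0.35), the immunoglobulin joining chain Jchain (0.35), Jade2 (0.42) and Dock8 (0.43), on 7 to 9 counts in members with a neighbor. Ccl5 was at 13908 CPM beside a C1q-positive cell and at 19033 CPM elsewhere, a ratio of 0.73 (0.65 to 0.82). This interval treats transcripts as independent, although single members held up to 29 Ccl5 counts. By cell, C1q-positive members included, 25.4% of members without Ccl5 counts had a C1q-positive neighbor. The share was 22.3% with 1 or 2 and 23.4% with 3 or more Ccl5 counts. Izumo1r had a ratio of 1.78 (1.01 to 3.07). For Tcf7 (0.77, 0.55 to 1.07), Il2rb (0.80, 0.56 to 1.12), Il7r (1.10, 0.70 to 1.69) and Lck (0.99, 0.66 to 1.46) the intervals included 1.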

How the data were processed

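The authors deposited, per segmented cell, whole-number counts of transcripts per gene, without normalization, and cell positions and areas. The run descriptions name Xenium Onboard Analysis 3.1.0.4, and the paper names Space Ranger. Counts were read with Python 3.11.15. Members had at least 2 rule counts, and cells with at least 5 genes were kept. Summed counts were divided by the group's total without the rule genes and given as CPM. Folds have exact conditional binomial intervals. Genes were called at 2-fold or 0.5-fold without a test. Doublets were not called. The calculation of gene folds was checked on counts drawn at fixed rates, and that of expected contacts on exchanged labels. These draws held no spread between cells and no transcripts from neighboring cells, so they could not test the effect of either.

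Named genes belong to lists written for T cell roles, or were the 25 highest and 10 lowest folds, the 10 in each direction between Cd8 and Cd4 members and the 5 in each direction by C1q contact; list genes named beyond these between Cd8 and Cd4 members or between Ccl5 groups were picked after their values were seen. Members and lists were chosen with earlier results of these data known. Alternatives were stricter rule, C1q, cell and gene thresholds, other comparison cells, thinning to 50 transcripts and restricted label exchanges; label exchanges within depth classes, and leaving out members by the NK gate, by other gates or, for the Cd8 share, by C1q counts, were added after seeing the data. A few genes of these lists are not reported here.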

Additional observations from a re-analysis of the deposited data

How the results depend on the processing

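The numbers of higher and lower genes stayed within 1.5 times of 245 and 170, of 2230 considered, under 9 of 11 alternatives each. Some of these considered fewer genes and called a larger share of them. With at least 3 rule counts 189 and 124 of 1282 genes were called, and without members that passed another gate 226 and 158 of 1512. In the latter setting the other cells were not gated, so lower genes of the gated cell types partly follow from it. Without a filter on low genes they were 851 and 1403 of 5046 genes, and with at least 50 counts 75 and 54 of 630, since the filter sets how many genes are counted. The share of cells that met the rule followed its definition: 0.229% with at least 3 counts, 0.297% with Cd3d, Cd3e and Cd3g only, 0.800% among cells with at least 20 transcripts and 0.357% after thinning to 50 transcripts. The log2 ratio of T and C1q-positive contacts stayed above 0 under all 9 alternatives. It was 0.71 with labels exchanged within tiles, 1.16 with at least 5 C1q counts, 0.70 without C1q-positive members, and, added after seeing the data, 0.64 within 10 depth classes and 0.48 within tiles and depth classes. The share of members with a C1q-positive neighbor was 11.1% with at least 5 C1q counts and 21.4% without C1q-positive members. The share with Cd8 and no Cd4 was 20.9% with at least 3 rule counts and 9.89% after thinning. Where no construction explains a change, the cause was not tested.

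No paired analysis was possible because each condition has 1 section, so no replicate was left out.

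Depth limits single genes: 1 count in the members equals 7.62 CPM, 1051 panel genes had no count in them, and 61291 of the 143810 cells had under 50 transcripts and dropped out of thinned values. Absence of Cd4, Cd8 or Foxp3 counts in a cell does not show that the cell lacks the gene.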
